A study of Homo sapiens with 8 samples.

Results

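MXD4, JUNB and CCND1 are 3 growth-control genes described as targets of RFX7, and binding of RFX7 at them was followed through the deposited peaks. A peak was assigned to a gene when its summit, the position of highest signal, lay within 50 kb of either end of the gene in the human assembly GRCh38 (hg38). Of 505 peaks in the DMSO list 8 were assigned, and of 622 in the Nutlin-3a list 6, to these 3 of 20037 protein-coding genes. The assay was ChIP-seq: an antibody recovers the DNA that a protein holds in chromatin, and that DNA is sequenced. HCT116, a widely used human colorectal carcinoma line with working p53, was the cell model. They received 10 µM Nutlin-3a, which frees p53 from its inhibitor MDM2, for 24 h, or its solvent DMSO for the same time. Each treatment had 2 RFX7 ChIP and 2 input samples (chromatin sequenced without antibody), 8 samples in 4 groups. All groups share the same unmodified line, and no line lacking RFX7 is among them. The files used here are 1 peak list per treatment, which hold no value per replicate and no read counts, and the reads of the single samples were not analysed here. From these lists no difference between treatments can be set against replicate error or tested, and the depth of each sample is unknown.

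RFX7 belongs to the RFX family of transcription factors, which share a winged-helix DNA-binding domain. The family's site, the X-box, is a pair of inverted half-sites, and family members can also bind a single one. MXD4 pairs with MAX and represses genes that MYC with MAX activates, through the E-box sequence that both pairs recognise. JUNB is a subunit of AP-1, a dimeric factor of JUN and FOS family proteins that responds to growth signals, and it can oppose the growth-promoting subunit JUN. CCND1 encodes cyclin D1, which activates CDK4 and CDK6 so that cells pass from G1 into S phase, and it is often over-produced in tumours. The set thus holds a repressor of growth genes, a subunit with context-dependent action and a driver of the cell cycle.

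Sequence is shown first for the promoters, since at MXD4 the strongest peak of each list overlapped the window and at JUNB no peak did. Both windows run from 250 bases before to 50 bases after the transcription start (RefSeq, GRCh38.p14), read 5′ to 3′ in the direction of transcription. MXD4 is on chromosome 4 and is read from the minus strand, chr4:2262060-2262359, and JUNB is on chromosome 19, plus strand, chr19:12791236-12791535. Capitals mark a match to any of 3 X-box half-sites, searched on both strands: the form GTTGCC, its variant GTTGCT or its variant GTTACC. Of the 3 genes, MXD4 and JUNB were matched in the promoter table, and CCND1 is named only.
MXD4: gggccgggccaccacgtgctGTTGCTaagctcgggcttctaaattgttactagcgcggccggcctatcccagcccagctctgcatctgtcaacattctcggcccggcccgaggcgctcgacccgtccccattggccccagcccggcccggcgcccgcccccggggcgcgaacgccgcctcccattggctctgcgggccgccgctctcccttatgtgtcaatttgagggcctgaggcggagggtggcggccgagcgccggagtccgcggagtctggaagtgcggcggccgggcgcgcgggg
JUNB: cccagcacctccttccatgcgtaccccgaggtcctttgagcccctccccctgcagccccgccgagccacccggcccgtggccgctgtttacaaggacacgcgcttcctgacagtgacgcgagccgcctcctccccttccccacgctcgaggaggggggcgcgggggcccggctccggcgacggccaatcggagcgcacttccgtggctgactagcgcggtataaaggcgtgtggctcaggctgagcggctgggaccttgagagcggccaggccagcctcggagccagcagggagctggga

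The MXD4 promoter held 1 of the half-sites, GTTGCT, on the strand of transcription and 230 to 225 bases before the start. The JUNB window held none of the 3 in these letters. GTTGCT, on either strand, was present in 12.8% of all 35116 promoter windows of this length, and any of the 3 half-sites in 27.8%. Among the 147 windows touched by a peak of either list, 36.1% held GTTGCT and 62.6% held any of the 3. The forms did not all go the same way. GTTGCC was in 29.9% of the touched windows against 12.2% of all, and GTTACC in 4.08% against 6.46%. The full X-box was searched on both strands as both half-sites in inverted order, with their core bases and the spacing between them fixed. In this form it was found in 1.03% of all windows, in 0 of the 147 and in neither window printed above. Other spacings were not searched. A match describes the letters and is not by itself a binding site.

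Other motifs were looked up after the sequence had been read. The MXD4 window held an E-box, CACGTG, 238 to 233 bases before the start, 2 bases from the half-site and without overlap. This sequence occurred in 7.26% of all windows and in 12.9% of those touched by a peak. CCAAT, the sequence of the promoter-binding factor NF-Y, was present at 2 places in the MXD4 window, both on the opposite strand, at 121 to 117 and at 68 to 64 bases before the start. The JUNB window held 1 CCAAT, 67 to 63 bases before its start. CCAAT on either strand was found in 34.6% of all windows and in 72.1% of those touched by a peak.

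Every one of the 3 genes had at least 1 peak in both lists. A DMSO summit lay within 50 kb of 2.03% of protein-coding genes, a Nutlin-3a summit within 50 kb of 3.04%, and summits of both within 50 kb of 1.7%. The genes were chosen as RFX7 targets with these data already known, so nothing is read from that difference. All 14 summits lay close to their gene, from 84 to 2840 bp from the nearer end, and between 5 and 100 kb there was no further summit. Within 5 kb, the share of protein-coding genes with a summit was 0.764% for DMSO, 1.08% for Nutlin-3a and 0.629% for both at once.

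**Figure D1:**
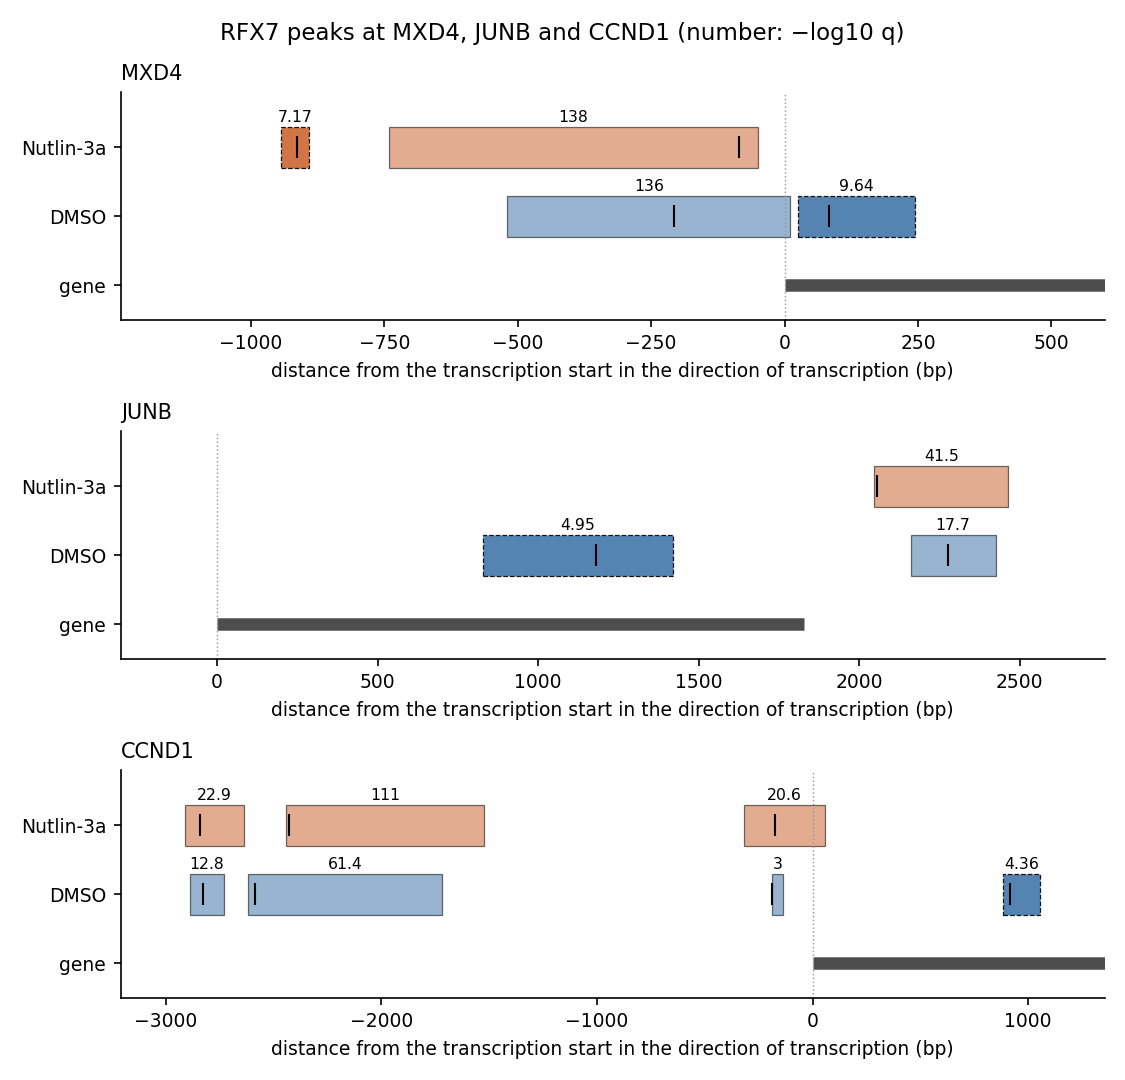
RFX7 peaks around the transcription start (0) of MXD4, JUNB and CCND1, with distance in bp in the direction of transcription. Boxes are peaks and ticks their summits, the number is the peak's −log10 q, dashed darker boxes have no overlapping peak in the other list, and the grey bar is the gene, drawn to the right edge where it runs on. The strongest peaks lie before the start at MXD4 and CCND1 and past the end of the gene at JUNB.

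MXD4, at 2247432 to 2262109 on chromosome 4, had its peaks at the promoter. In the DMSO list the larger peak covered chr4:2262098-2262629, 532 bp wide, with its summit 208 bp before the transcription start. Its fold enrichment, the authors' ratio of ChIP signal to local background, was 19.3, the highest value deposited among the 505 DMSO peaks. Its −log10 q, where larger means less likely under background after correction for multiple testing, was 136 and ranked 35. This peak contained the E-box, both CCAAT matches and the promoter half-site, the last 17 bp from the summit. A smaller DMSO peak, chr4:2261864-2262083, followed after a gap of 14 bp on the gene side, with its summit 84 bp inside the gene and values of 4.49 (fold) and 9.64 (−log10 q). Together these peaks covered 286 of the 300 printed bases.

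In the Nutlin-3a list, the larger MXD4 peak covered chr4:2262159-2262851, 693 bp wide, with a −log10 q of 138 that ranked 56 of 622. It shared 471 bp with the larger DMSO peak and reached farther upstream, from 742 to 50 bp before the start. It too contained the half-site, the E-box and both CCAAT matches, and covered 201 of the printed bases. Its fold enrichment was deposited as 4.27, which ranked 213. A small peak of 54 bp, chr4:2263000-2263053, lay farther upstream with its summit 913 bp before the start, a −log10 q of 7.17 and a fold of 6.40. It had no DMSO counterpart, and the nearest DMSO peak was 370 bp away. The smaller DMSO peak likewise had no Nutlin-3a counterpart, the gap being 75 bp. The nearest other protein-coding gene, ZFYVE28, was 6575 bp or more from each of the 4 summits.

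**Figure D2:**
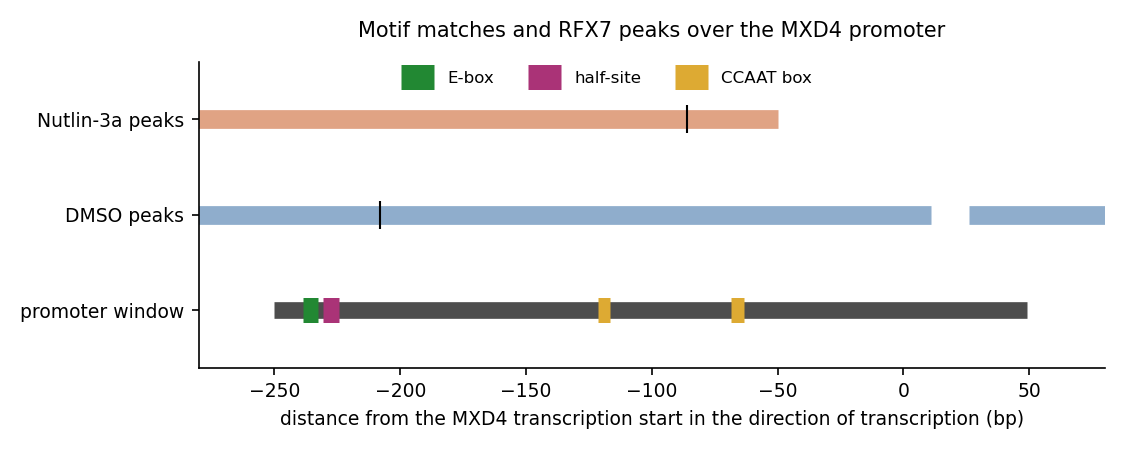
Motif matches in the 300-base MXD4 promoter window (bottom) below the DMSO and Nutlin-3a peaks, on an axis of distance from the transcription start in bp; ticks are summits. The half-site and E-box lie together 238 to 225 bp before the start, under the larger peak of both lists, with the DMSO summit at 208 bp and the Nutlin-3a summit at 86 bp before the start.

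Ranks of the MXD4 promoter peak by fold and by −log10 q diverged in the Nutlin-3a list. MACS2 is named in the submitters' processing notes, and under its formulas the fold and p-value of a peak together give the ChIP pileup (overlapping extended reads at the summit) and the expected background. For the larger DMSO peak this gave a pileup of 151 over a background of 6.89, and for the smaller one 36 over 7.24. The Nutlin-3a peak of 693 bp gave no whole-number pileup, so its fold and p-value need not describe the same call. Its summit sat 5.19% of the way along the peak, toward its gene-side end. Its rank by fold is therefore uncertain, while the small upstream peak had a pileup of 17 over 1.81.

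JUNB, at 12791486 to 12793315 on chromosome 19, had its strongest peaks past its 3′ end, and no listed peak touched its promoter window. The DMSO peak chr19:12793646-12793911, 266 bp wide, had its summit 447 bp past the end of the gene. Its fold enrichment was 4.18 and its −log10 q was 17.7, ranked 249 of 505, near the middle of the list. Among the 154 DMSO peaks within 5 kb of a coding gene, this peak ranked 55 by −log10 q. The Nutlin-3a peak chr19:12793533-12793951 contained the whole of it, was 419 bp wide and had its summit 227 bp past the gene end. Its −log10 q was 41.5, ranked 222 of 622, and 58 of the 204 Nutlin-3a peaks within 5 kb of a coding gene. Its fold enrichment was 4.85, which is uncertain because this peak too gave no whole-number pileup. The next gene in that direction, PRDX2, which encodes a peroxide-removing enzyme, lay 3061 bp or more from these summits.

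A second DMSO peak lay inside JUNB, at chr19:12792315-12792906, 592 bp wide, with its summit 1180 bp past the start of the gene. It was weak, at 3.04-fold and a −log10 q of 4.95 (rank 416), and the nearest Nutlin-3a peak was 626 bp away. Its summit was nearer to an end of HOOK2 (316 bp), a cytoskeletal linker gene that overlaps JUNB on the opposite strand, than to an end of JUNB (649 bp). The peak covered 286 of the 300 bases of the HOOK2 promoter window, which held none of the 3 half-sites. JUNB lies among close neighbours, and 8 other protein-coding genes had an end within 50 kb of its summits, against 3 at MXD4 and 2 at CCND1. The DMSO pileup was 68 over a background of 15.5 for the peak past the gene and 38 over 11.8 for the one inside it.

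CCND1, at 69641156 to 69654474 on chromosome 11, had the most peaks, 4 under DMSO and 3 under Nutlin-3a, spread over 3967 bp. It is transcribed toward higher coordinates in the standard human annotation, and positions below use that start. The strongest pair lay upstream. The DMSO peak chr11:69638538-69639439, 902 bp wide, had a −log10 q of 61.4 (rank 105 of 505) and a fold enrichment of 6.14. The Nutlin-3a peak chr11:69638711-69639632, 922 bp wide, had a −log10 q of 111 (rank 79 of 622) and a fold enrichment of 4.9998. They shared 729 bp and lay 1524 to 2618 bp before the start, with summits at 2586 bp (DMSO) and 2427 bp (Nutlin-3a). Like the larger Nutlin-3a peak at MXD4, neither gave a whole-number pileup, so both folds are uncertain. These were among the widest peaks, wider than 98.8% of peaks under DMSO and 97.3% under Nutlin-3a.

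A narrower peak stood just beyond them in both lists. In the DMSO list it was 155 bp wide (chr11:69638269-69638423), with a −log10 q of 12.8 and a fold enrichment of 4.38. In the Nutlin-3a list it was 273 bp wide (chr11:69638246-69638518), with a −log10 q of 22.9 and a fold enrichment of 3.66. Their summits were 13 bp apart, at 2827 and 2840 bp before the start. A gap of 114 bp (DMSO) or 192 bp (Nutlin-3a) separated each from its wide neighbour.

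At the CCND1 start itself, the DMSO list held a peak of 50 bp, the smallest width in that list, at chr11:69640969-69641018. Its −log10 q was 3.00, which ranked 479 of 505, and its fold enrichment was 4.20. The Nutlin-3a list held a peak of 378 bp around it, chr11:69640837-69641214, with a −log10 q of 20.6 (rank 327 of 622) and a fold enrichment of 3.98. The summits were again 13 bp apart, at 186 and 173 bp before the start. The DMSO list alone held a further peak inside the gene, chr11:69642042-69642212, with its summit 917 bp past the start, a −log10 q of 4.36 and a fold of 3.13. The nearest Nutlin-3a peak to it was 827 bp away. The DMSO pileups were 48 over a background of 10.2 for the far upstream peak, 16 over 3.05 at the start and 33 over 9.85 inside the gene.

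Across the 3 genes, 5 of 8 peaks under DMSO and 5 of 6 under Nutlin-3a overlapped an entry of the other list by at least 1 bp. Over the whole lists the shares were 74.3% (DMSO) and 56.9% (Nutlin-3a), and among peaks within 5 kb of a coding gene 70.8% and 50.5%. With 14 peaks at 3 places no difference from these shares is read. The strongest peak of each gene was among those that overlapped, in both lists. With summits within 100 bp required instead, 2 peaks per list stayed shared, and the strongest peak of MXD4, JUNB or CCND1 was not among them. In each of the pairs lost, at least 1 peak gave no whole-number pileup and had its summit close to an edge. Whether such a summit marks the highest signal of the listed peak was not tested. The 3 unshared DMSO peaks had −log10 q values of 9.64, 4.95 and 4.36, and the unshared Nutlin-3a peak 7.17. All were below the medians of the whole lists, 17.2 (DMSO) and 22.6 (Nutlin-3a). Among peaks within 5 kb of a coding gene the medians were lower, 9.71 (DMSO) and 14.99 (Nutlin-3a). The unshared MXD4 peak of the DMSO list, at 9.64, lay close to that median and ranked 78 of 154. By bases, 62.6% of the DMSO and 63.1% of the Nutlin-3a coverage at MXD4 was common to both, 31% and 63.5% at JUNB, and 73.1% and 59.4% at CCND1.

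**Figure D3:**
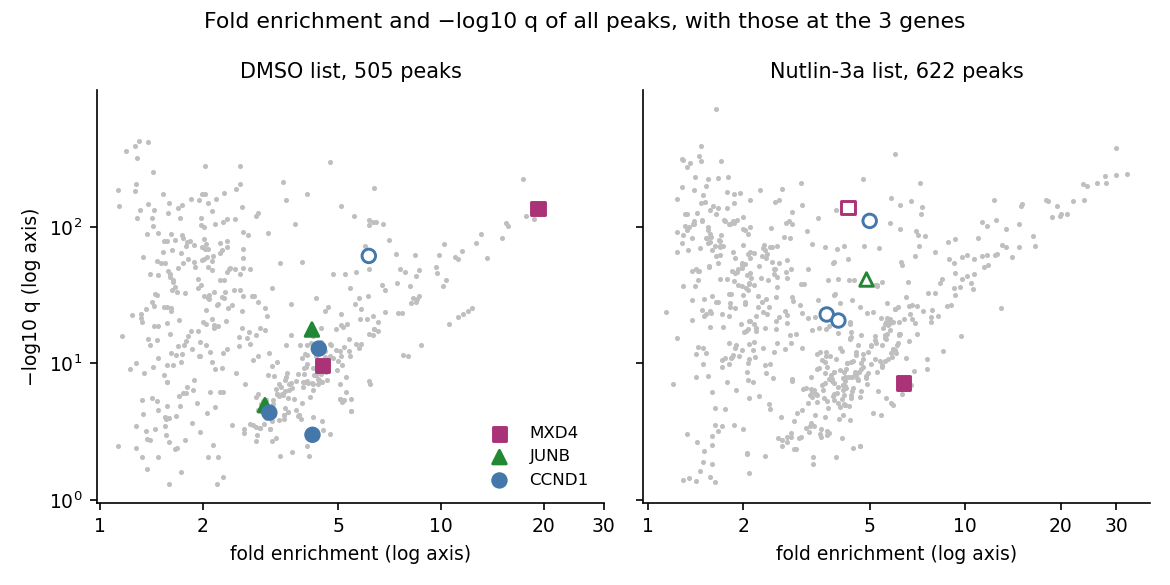
Fold enrichment (x, log axis) against −log10 q (y, log axis) for every peak of the DMSO list (left, 505 peaks) and the Nutlin-3a list (right, 622 peaks) in grey, with peaks at MXD4 (squares), JUNB (triangles) and CCND1 (circles); open symbols gave no whole-number pileup. The MXD4 promoter peak has the highest deposited fold in the DMSO list, and 5 of the 6 Nutlin-3a symbols are open.

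The fold and fold rank of each peak drawn as an open symbol are uncertain, which includes all 3 Nutlin-3a peaks at CCND1. The p-value of such a peak, and with it the −log10 q, need not describe the same call as its fold. Fold ranks of the other peaks, among them the first rank of the MXD4 promoter peak, hold for the deposited values only. The lists they are ranked in also contain peaks without a whole-number pileup. Of the 8 DMSO peaks at these genes 7 gave a whole-number pileup, against 81% of the whole list, and of the 6 Nutlin-3a peaks 1 did, against 66.1%. In 4 of the 6 peaks without one, the larger ones at MXD4 and JUNB in the Nutlin-3a list and the wide CCND1 peaks of both lists, the summit sat within the first 5.19% of the peak's width. Over all DMSO peaks the median summit position was 48.8% of the width with a whole-number pileup and 28.2% without one. The same medians for Nutlin-3a were 46.2% and 28.1%. The summits of the shared pairs they belong to were 122 bp apart at MXD4, 220 bp at JUNB and 159 bp at CCND1, against 13 bp in both remaining pairs.

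Among the DMSO peaks of the 3 genes with a whole-number pileup, local background was highest at JUNB, and the MXD4 values lay within the range at CCND1. Background at these peaks was 6.89 and 7.24 at MXD4, 11.8 and 15.5 at JUNB, and from 3.05 to 10.2 at CCND1. The median over the 116 DMSO peaks with a whole-number pileup within 5 kb of a coding gene was 8.86, with a median pileup of 38. The MXD4 promoter peak had its pileup of 151 on a background below that median, and the JUNB peaks, with 38 and 68, stood on a background above it. Over all peaks with a whole-number pileup, near genes or not, the median background was 36.4 in the DMSO list and 16.6 in that of Nutlin-3a. The lowest was 1.76 in the DMSO list and 1.37 in that of Nutlin-3a.

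More than 1 peak near a gene was uncommon elsewhere. All 3 genes had at least 2 DMSO summits within 5 kb, against 0.11% of all protein-coding genes and 14.4% of the 153 with any. At JUNB this counts the peak inside the gene, whose summit was nearer to an end of HOOK2. In the Nutlin-3a list MXD4 and CCND1 had at least 2, against 0.14% and 13% of 216. Among peaks with −log10 q of at least 10, however, MXD4 and JUNB kept 1 DMSO peak each and CCND1 kept 2, and in the Nutlin-3a list MXD4 kept 1, JUNB 1 and CCND1 3. Of the 3 genes, only CCND1 then had more than 1, and no share over all genes is given at this threshold. CCND1 with its 4 DMSO peaks was 1 of 8 genes with 4 or more, and with its 3 Nutlin-3a peaks 1 of 13 with 3 or more. CDKN1B, a cell cycle gene described below, had 4 DMSO and 5 Nutlin-3a summits within 5 kb. Another 15 RFX7 targets, recalled from publications and not checked gene by gene, served for comparison. Of these, 8 had a DMSO and 12 a Nutlin-3a peak within 5 kb, and 0 had 2 or more in either list. Several peaks at a gene were separated by short gaps (14 bp at MXD4, 114 bp at CCND1), so a count of peaks is not a count of separate sites.

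**Figure D4:**
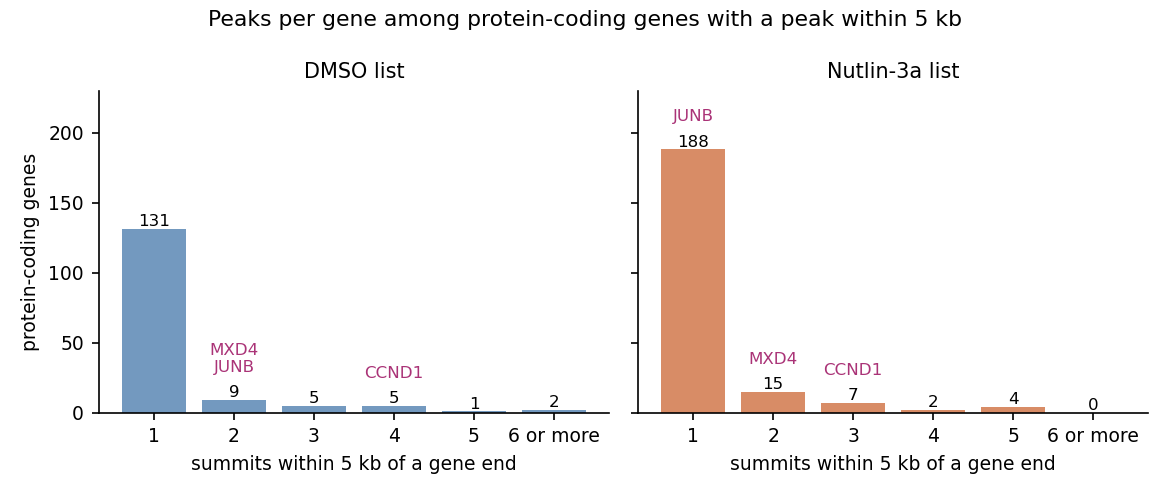
Number of protein-coding genes (y) by the number of summits within 5 kb of a gene end (x) in the DMSO list (left) and the Nutlin-3a list (right), with the bars of MXD4, JUNB and CCND1 named. Most genes with a peak have a single one, whereas CCND1 stands at 4 DMSO and 3 Nutlin-3a summits.

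By −log10 q, MXD4 and CCND1 stood above the median of these targets and JUNB below it. The best peak within 5 kb of the other targets had a median −log10 q of 31.1 under DMSO (range 13.8 to 223, 8 genes) and 68.7 under Nutlin-3a (7.71 to 224, 12 genes). PNRC1, a coactivator of nuclear receptors, was the highest in both. MXD4 reached 136 and 138, CCND1 61.4 and 111, and JUNB 17.7 and 41.5. Of these values, only the DMSO ones of MXD4 and JUNB came from peaks with a whole-number pileup, and neither PNRC1 value did. The lists carry neither replicate error nor a stated depth, so these pairs of numbers give no direction of change.

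The partners of these genes were examined through 3 lists, each including the gene itself. Of 13 genes of the MYC/MAX/MXD network, 4 had a summit of either list within 50 kb (30.8%), as did 3 of 11 AP-1 subunits (27.3%) and 6 of 25 genes of D-type cyclins and the G1/S switch (24%). Among all protein-coding genes the share was 3.37%. Without MXD4, JUNB and CCND1 the counts were 3 of 12 (25%), 2 of 10 (20%) and 5 of 24 (20.8%). Within 5 kb the full lists gave 3, 2 and 5 genes, and without MXD4, JUNB and CCND1 they gave 2, 1 and 4. The share of all genes was 1.21%. These are counts, and no set test was made.

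In the MYC/MAX/MXD network, MXI1, another MAX partner that represses, had a Nutlin-3a peak 3740 bp from an end with a −log10 q of 26.7 and no DMSO peak within 50 kb. MYC itself had a weak peak in both lists, with −log10 q values of 3.56 (DMSO) and 9.17 (Nutlin-3a), 2761 and 3405 bp from an end, which did not overlap each other. At MNT, a further repressor that pairs with MAX, the summits lay 36063 bp (DMSO) and 36043 bp (Nutlin-3a) away and nearer to SGSM2, with −log10 q values of 4.14 and 11.1. MAX, the common partner, was among those with no summit within 50 kb. After MXD4, the highest value in the network was the 26.7 at MXI1.

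Of the AP-1 subunits, FOS had a shared peak farther out than the JUNB peaks, 19579 bp (DMSO) and 19749 bp (Nutlin-3a) from an end, with −log10 q values of 28.4 and 81.9. These exceeded the JUNB values of the same list. JUND, a close relative of JUNB, had a DMSO peak 884 bp from an end with a −log10 q of 13.8 and no Nutlin-3a peak within 50 kb. JUN had none.

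Of the cell cycle genes, CCND2, a second D-type cyclin, had a shared peak 1923 bp (DMSO) and 2048 bp (Nutlin-3a) from an end, with −log10 q values of 25.2 and 25.8. CDK4, the kinase that D-type cyclins activate, had a shared peak 207 and 163 bp from an end, with 11.3 and 27.97. CDKN1B, an inhibitor of cyclin-dependent kinases (p27), had several weak peaks, 4 under DMSO and 5 under Nutlin-3a, with a highest −log10 q of 7.30 and 12.2. CDKN2D, an inhibitor of CDK4 and CDK6, had a Nutlin-3a peak 184 bp from an end with a −log10 q of 16.2 and no DMSO peak within 50 kb. CCNE1, the E-type cyclin that acts after the D-type cyclins, had a Nutlin-3a peak 17389 bp away with 22.2, also without a DMSO peak. CDKN1A, the p53-induced inhibitor p21, and CDK6 had no summit within 50 kb in either list. Within this list CCND1 had the highest −log10 q in both treatments.

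**Figure D5:**
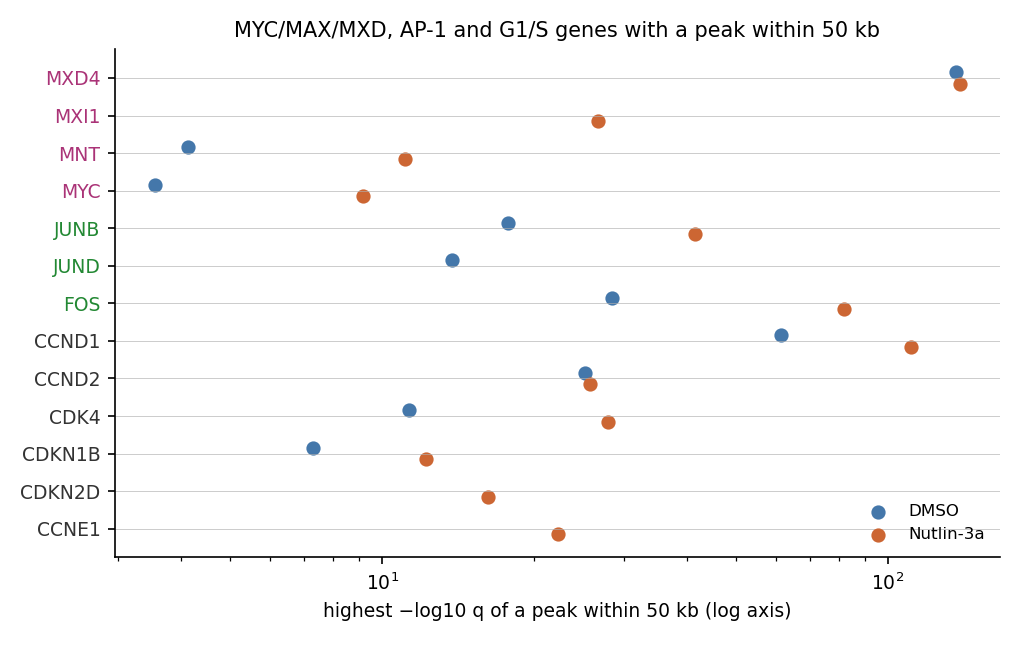
Highest −log10 q (x, log axis) of a peak within 50 kb of each gene of the 3 lists that had one, DMSO in blue and Nutlin-3a in orange; names are coloured by list (purple MYC/MAX/MXD network, green AP-1, black G1/S). MXD4 and CCND1 stand highest in their lists, FOS stands above JUNB, MXI1, CDKN2D and CCNE1 have a Nutlin-3a value only, and JUND has a DMSO value only.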

How the data were processed

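RFX7 ChIP-seq peak lists of HCT116 cells, 1 per treatment, were used as deposited. Per the submitters' processing notes, reads were handled on hg38 with tools that include MACS2 2.2.7.1 and bedtools 2.29.2, whose order and settings are not given in the sources used here. Pooling of replicates is not stated either. Each peak's fold (a ratio), −log10 p and −log10 q are the authors' deposited values and were ranked within a list only. The deposited score equals −log10 q multiplied by 10 and truncated in 503 of 505 DMSO and 621 of 622 Nutlin-3a peaks.

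Each distance is that of a summit to the closer gene end (protein-coding genes of RefSeq, GRCh38.p14, 20037 genes on assembled chromosomes; all list genes matched, FAM214A as ATOSA). Distances from a start count the start as 0. Exon structure was not used. Pileup and background were solved from fold, (pileup + 1)/(background + 1), and the upper Poisson tail above the pileup, with 0.05 as the tolerance for a whole number (Python 3.11.15, scipy 1.17.1). The solver was tested on simulated data. Genes named are the 3 genes, list genes with a summit within 50 kb and genes nearer to a summit; absent list genes (MAX, JUN, CDKN1A, CDK6) and SGSM2 were added after values were seen. The genes, lists and targets were chosen with earlier results of these data known. Alternatives varied the distance, the threshold, the peak position, the overlap rule and the ranking.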

Additional observations from a re-analysis of the deposited data

How the results depend on the processing

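No paired analysis was possible because the lists, 1 per treatment, hold no value per replicate, and leaving out a replicate was not possible for the same reason. The search for half-sites within 100 bp of each summit was not run, because no genome sequence was used. Of 70 alternative values 44 stayed near the main one, meaning within 1.5 times for a count and within the 95% Wilson interval for a percentage. Sharing by midpoints was added after seeing the data. At −log10 q of at least 10, 4 of the 8 DMSO peaks were left (MXD4 and JUNB from 2 to 1 each, CCND1 from 4 to 2), and MXD4 went from 2 to 1 in the Nutlin-3a list. Sharing fell from 5 peaks to 2 in both lists with summits within 100 bp, and to 3 in both with midpoints within 100 bp. For the strongest peak of each gene, the percentage of its list ranked at or below it by fold moved as follows. At MXD4 in the DMSO list it went from 100 to 93.3 by −log10 p and by −log10 q. At MXD4 in the Nutlin-3a list it went from 65.9 to 91.2 by either, and to 39.2 among peaks within 5 kb of a coding gene. At JUNB it went from 71.7 to 50.9 by either and 46.8 near genes (DMSO), and from 73 to 64.3 by −log10 p, 64.5 by −log10 q and 51 near genes (Nutlin-3a). At CCND1 it went from 87.9 to 79.4 by either and 76.6 near genes (DMSO), and from 74.1 to 87.3 by −log10 p, 87.5 by −log10 q and 52.9 near genes (Nutlin-3a). The cause of these shifts was not tested.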
